A study of Mus musculus with 4 samples.

Results

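miR-22 is a microRNA of 1 hairpin, and its 2 mature arms, miR-22-3p and miR-22-5p, are described here in extracellular vesicles of mouse muscle cells. The members are the table row with the identifier of miR-22-3p (MIMAT0000531) and the row of the other arm of the same hairpin (MIMAT0004629), 2 of 2110 rows in all. miR-22-3p was chosen by its difference between damaged and WT in an earlier analysis of these counts. Identifier and name matched for both rows, and no other row carries either identifier. The libraries were small RNA of vesicles released by C2C12, an established mouse myoblast line with a WT genotype label in every sample. The damaged group (2 libraries) came from cells treated with hydrogen peroxide, an oxidant, and the WT group (2 libraries) has WT as its treatment label. The medium of all cells held 10% FBS, a bovine serum. Vesicles were isolated through differential centrifugation steps. The sources used here do not give the peroxide dose, the exposure time or whether replicates were separate cultures. p-values therefore measure only the spread between these libraries, which may be technical. A myoblast line in culture stands for muscle here, and the RNA inside the cells was not analysed here.

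A microRNA hairpin is cut by Drosha and Dicer into a short duplex, of which 1 arm is loaded into an Argonaute protein and guides it to messenger RNAs that match the seed, the bases near its 5′ end. The other arm is usually degraded. In miR-22 the 3p arm is the usual guide. miR-22 is abundant in heart and skeletal muscle, is known for a role in growth of the stressed heart, and has Hdac4 and Sirt1 among its known targets.

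The sequences of both arms and their hairpin are shown because the arms are counted separately and form 1 duplex. In the mature sequences the capitals mark the seed, bases 2 to 8 from the 5′ end. In the hairpin the capitals mark the 5p arm and then the 3p arm. The sequences are from RefSeq (GRCm38.p6), where both rows matched by position.
miR-22-5p: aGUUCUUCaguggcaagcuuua
miR-22-3p: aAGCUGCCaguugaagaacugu
Mir22 hairpin: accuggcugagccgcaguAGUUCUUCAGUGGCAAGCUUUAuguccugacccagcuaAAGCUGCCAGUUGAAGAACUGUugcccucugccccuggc
The hairpin lies on the plus strand of chromosome 11 at 75463716 to 75463810 (mm10, 1-based). The 5p row spans 75463734 to 75463755 and the 3p row 75463772 to 75463793. In GENCODE vM21 both lie in exon 2 of Mir22hg, a noncoding host gene, and in an exon of 1 noncoding transcript of the protein-coding gene Tlcd2 on the same strand. Each arm has 22 bases, and 16 bases separate them. In the predicted minimum free energy fold (−41.90 kcal/mol by RNAfold) 19 bases of each arm paired with the other arm. GC content was 45.5% in miR-22-3p and 40.9% in miR-22-5p. No other row among the 1740 with a RefSeq sequence shared bases 2 to 8 with either arm. Neither row shares bases with another row on either strand. In the strandless counting no overlapping row can therefore take the reads of either arm or make them ambiguous.

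Library totals ran from 4577668 to 7638663 counts. The labelled cell type was checked on 4 muscle microRNAs, miR-133b-3p, miR-133a-3p, miR-1a-3p and miR-206-3p. They were present in every library and held 29.5% and 33.4% of counts in WT and 35.5% and 38.1% in damaged. Of 536 rows tested with edgeR's quasi-likelihood test, 51 were called at an adjusted p under 0.05 (9.51%). Of these, 22 were higher (4.1% of tested rows) and 29 lower (5.41%) in damaged. A level here is a share of a library, so more copies in each vesicle and more vesicles that carry miR-22 cannot be told apart. The rows are mature microRNAs of nearly the same length, so counts were not divided by length. The counts do not show whether each read spans a whole mature microRNA.

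miR-22-3p was among the most abundant microRNAs of the vesicles, and its mean level was 2.01-fold higher in damaged than in WT. Since this difference is what chose it, the values are a description, with no test. It had 64401 counts in WT replicate 1, 113667 in WT replicate 2, 230599 in damaged replicate 1 and 187631 in damaged replicate 2. As shares of a library these are 1.41% (exact Clopper-Pearson 95% interval 1.4 to 1.42), 1.49% (1.48 to 1.50), 3.34% (3.33 to 3.35) and 2.55% (2.54 to 2.56) in that order. Both damaged libraries were above both WT libraries, and the replicates of each group lay apart by more than counting error, the damaged pair by more than the WT pair. These intervals cover counting error only, since the sources name no molecular identifiers on the reads.

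After TMM scaling, which corrects CPM (counts of a library scaled to a common total) for differences in composition, miR-22-3p stood at 14259 and 14924 CPM in WT and at 33633 and 24949 CPM in damaged. The means were 14591 ± 470.5 CPM and 29291 ± 6140 CPM (SD, n = 2). The fitted log2 fold change was 1.01 ± 0.17 (SE), and depending on which libraries are set against each other the difference was 1.67-fold to 2.36-fold. The size of the difference rested most on damaged replicate 1, and without that library the log2 fold change was 0.75. Of all tested rows, 29.1% also had both damaged libraries above both WT libraries in CPM, so separation alone is common in these data.

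miR-22-5p, the arm that is usually discarded, was a rare species with the same order of groups. It had 406 and 674 counts in WT and 955 and 963 in damaged. Scaled, these are 89.9 and 88.5 CPM in WT and 139 and 128 CPM in damaged, with both damaged libraries above both WT libraries. The means were 89.2 ± 0.988 and 134 ± 7.94 CPM (SD, n = 2), and the log2 fold change was 0.58 ± 0.17 (SE), a 1.50-fold difference. It belongs to the same contrast that picked its partner and is given with no test. Of all tested rows, 29.1% also had both damaged libraries above both WT libraries in CPM. Over the tested rows, replicates differed by more than counting error (chi-square over degrees of freedom of 111 in WT and 214 in damaged). The exact 95% intervals of the library share of miR-22-5p cover counting error only. They overlapped between replicates of a group and did not overlap between groups. In damaged these were 0.0130% to 0.0147% in replicate 1 and 0.0123% to 0.0140% in replicate 2. In WT they were 0.00803% to 0.00978% and 0.00817% to 0.00952%.

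**Figure D1:**
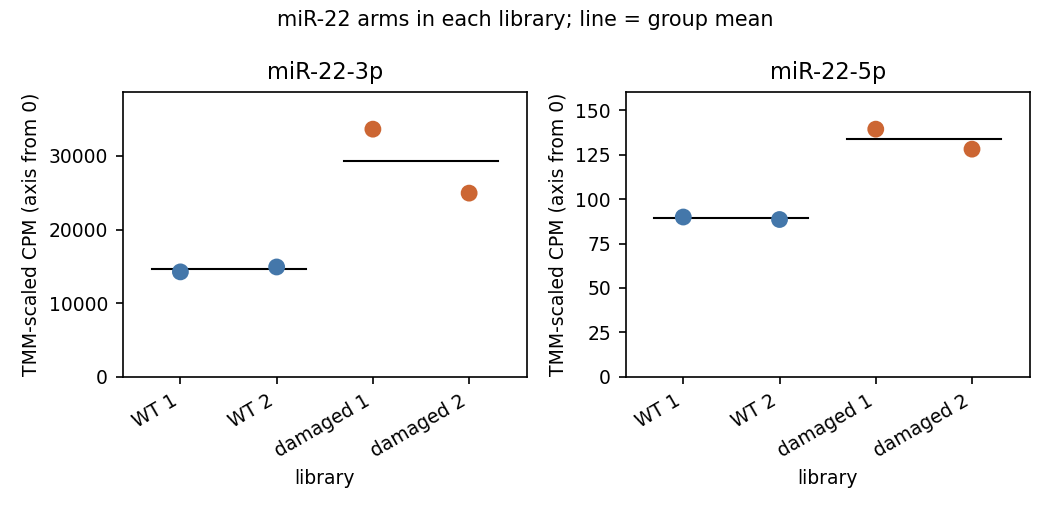
TMM-scaled CPM (vertical axis, from 0) of miR-22-3p (left) and miR-22-5p (right) in each of the 4 libraries, with a line at each group's mean of 2 libraries. For both arms the damaged libraries lie above the WT libraries, at 33633 and 24949 CPM against 14259 and 14924 for the 3p arm.

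In the order of rows by count, miR-22-3p moved toward the top of the table. It ranked 17th and 11th in WT replicates 1 and 2, and 6th and 8th in damaged replicates 1 and 2, of 692 to 746 rows with a count. With identical copies of a microRNA summed, the ranks were 16, 14, 5 and 8 in the same order. miR-22-5p ranked 158th and 159th in WT and 142nd and 145th in damaged. The mean share of miR-22-3p was 1.50 percentage points higher in damaged, the second largest gain of any row after miR-206-3p, a muscle microRNA, at 4.64 points. miR-23a-3p followed at 0.806 points.

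No other row of such abundance was as much higher in damaged. Among the 21 rows of at least 10000 CPM on average, which stand for 17 mature identifiers, no other row had a higher log2 fold change than miR-22-3p. Their median was −0.12, and 5 of them (23.8%) had both damaged libraries above both WT libraries. The next in order was miR-23a-3p at 0.58 ± 0.13 (SE), and the lowest was a row of miR-199a-3p at −0.87 ± 0.15 (SE). Among the 69 rows of at least 1000 CPM, 6 others were higher than miR-22-3p, and among all 536 tested rows 77 were. The median over all tested rows was 0.02, and 132 other tested rows were higher than miR-22-5p.

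**Figure D2:**
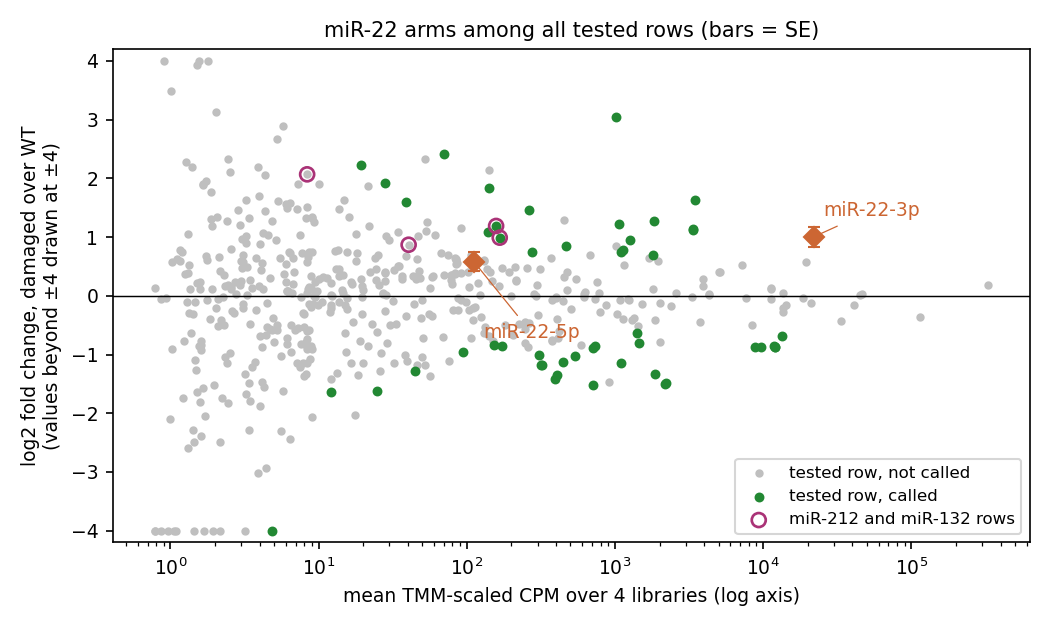
Log2 fold change of damaged over WT (vertical axis) against mean TMM-scaled CPM (log axis) for the 536 tested rows, with rows called by edgeR in green, both miR-22 arms as diamonds with SE bars, and circles around the miR-212 and miR-132 rows. The 15 rows beyond 4 in size are drawn at the edge, and miR-22-3p at 1.01 lies above every other row of at least 10000 CPM.

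The ratio of miR-22-3p to another row of the same library needs no scaling between libraries. It is a description, since it holds the miR-22-3p counts that chose this microRNA. It was taken against the other 9 of the 10 most abundant rows. Against miR-206-3p, there were 0.0491 and 0.0457 miR-22-3p counts per count in WT and 0.0985 and 0.0698 in damaged. Against miR-21a-5p, a microRNA common in proliferating cells, the ratio was 0.103 and 0.125 in WT and 0.278 and 0.309 in damaged. Both damaged libraries exceeded both WT libraries here.

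Among the let-7 rows, which restrain growth genes, miR-22-3p had 0.335 and 0.336 counts per count of let-7b-5p in WT and 0.877 and 0.633 in damaged. For miR-27b-3p, a regulator of myoblast differentiation, the ratio was 0.332 and 0.446 in WT and 1.18 and 0.874 in damaged. miR-22-3p was thus the smaller of the pair in both WT libraries and the larger in damaged replicate 1 alone. miR-143-3p, known from mesenchymal cells, was the larger of its pair in both WT libraries (ratios of 0.615 and 0.722) and the smaller in both damaged libraries (1.52 and 1.35). The same held for miR-378a-3p, a microRNA of energy metabolism, with 0.680 and 0.888 in WT and 1.57 and 1.61 in damaged.

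miR-23a-3p came closest to moving in step with miR-22-3p. Its ratio was 0.973 and 0.889 in WT and 1.56 and 0.987 in damaged, so that damaged replicate 2 lay just above WT replicate 1. Over the 9 rows the log2 ratio was 0.41 to 1.4 higher in damaged, with a median of 1.03, and in 9 of 9 both damaged libraries lay above both WT libraries. The 9 ratios share the miR-22-3p counts and are not separate observations. miR-22-3p itself had this order of groups in CPM, as did 29.1% of all tested rows. None of these 9 rows was called by edgeR, with adjusted p from 0.0531 for miR-23a-3p to 0.949 for miR-378a-3p. At an unadjusted p under 0.05, 1 was higher and 1 lower. DESeq2 called 1 higher and 1 lower, and limma-voom 1 higher. Of all 536 tested rows edgeR called 51, DESeq2 106 and limma-voom 79, and 165 had an unadjusted p under 0.05.

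**Figure D3:**
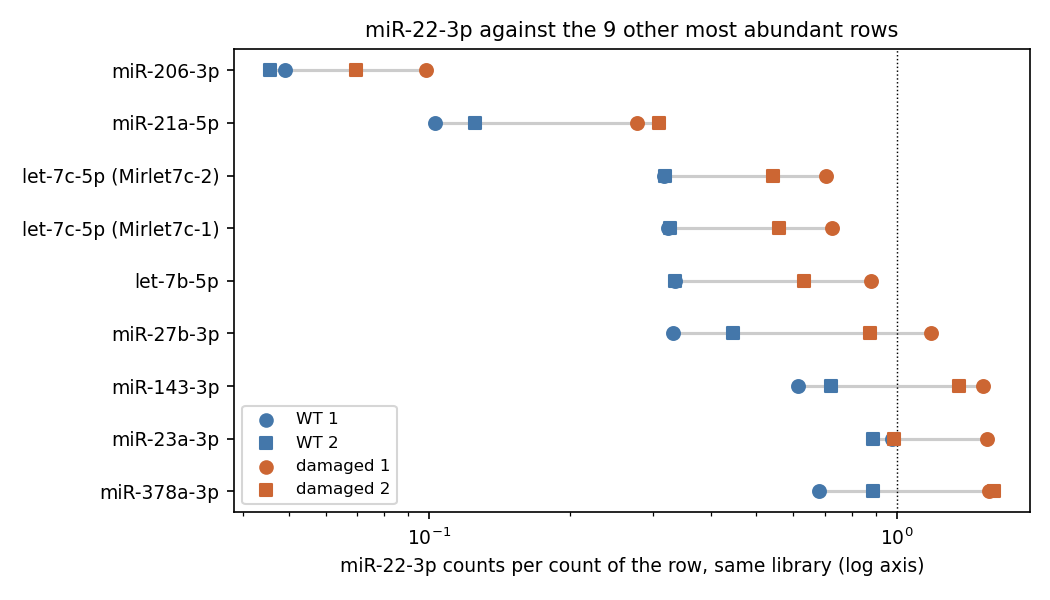
Counts of miR-22-3p per count of each of the 9 other most abundant rows in the same library (log axis), with WT in blue, damaged in orange, circles for replicate 1 and squares for replicate 2. The damaged points lie to the right of the WT points in each row, by the least for miR-23a-3p at 0.973 and 0.889 against 1.56 and 0.987.

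The 3p arm dominated the hairpin in every library, and more so in damaged. miR-22-5p made up 0.626% (exact 95% interval 0.567 to 0.690) of the reads of both arms in WT replicate 1 and 0.589% (0.546 to 0.636) in WT replicate 2. It made up 0.412% (0.387 to 0.439) in damaged replicate 1 and 0.511% (0.479 to 0.544) in damaged replicate 2. The WT shares lay above the damaged shares, and the intervals of WT replicate 2 and damaged replicate 2 nearly touched. Expressed as a ratio, there were 159 and 169 reads of the 3p arm per 5p read in WT and 241 and 195 in damaged. The log2 ratio was 0.41 higher in damaged, a description since the counts that picked miR-22-3p are part of it.

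A shift of that size was ordinary among microRNA hairpins here. Both arms were tested for 151 hairpins, and 104 of them changed their log2 arm ratio by more than miR-22, up or down. The median size of the change was 0.78. In 27.2% of the hairpins the 3p to 5p ratio was also higher in both damaged libraries than in both WT libraries. Both arms had a positive log2 fold change in 50 hairpins, and both were at least as high as miR-22-5p in 9, with miR-22 counted.

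In the strength of its arm preference miR-22 was far to 1 side. It had 199 reads of the 3p arm per 5p read over the 4 libraries and ranked 15th of 151 by that ratio, of which 64 hairpins had more 3p than 5p reads. The minor arm held 0.50% of the reads of the hairpin, against a median of 5.20%, and 31 hairpins had a lower share. Just above miR-22 were miR-652, at 247, and miR-378a, at 209. Just below were miR-29b-2, at 86.5, and miR-342, at 85.8, so that a gap follows miR-22 in the order. miR-652, miR-29b-2 and miR-342 rest on 92, 35 and 27 reads of their 5p arm, against 2998 for miR-22, and the mature sequence of miR-29b-3p has 2 gene copies whose reads cannot be assigned.

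**Figure D4:**
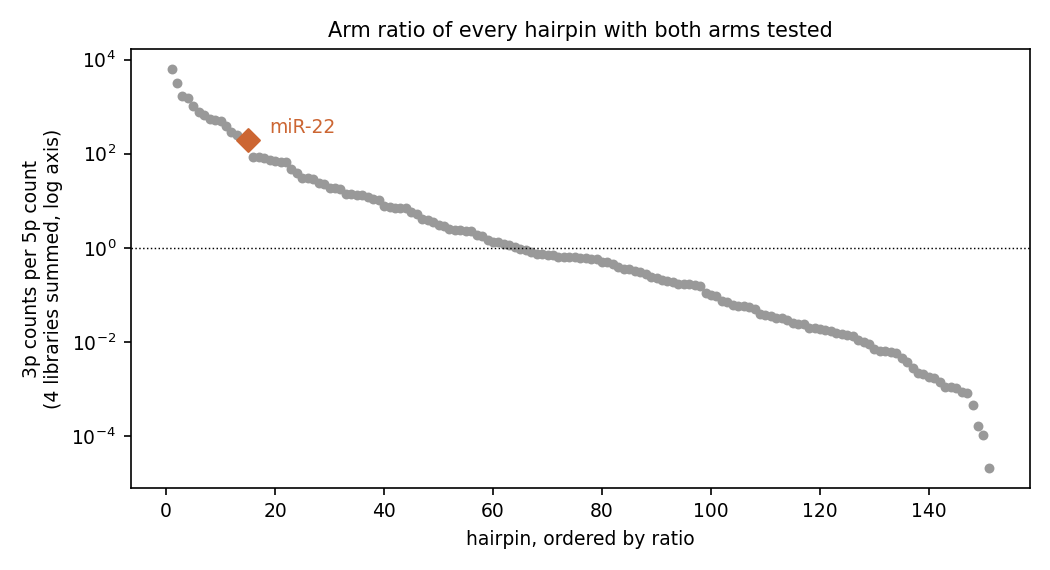
Reads of the 3p arm per read of the 5p arm (log axis, 4 libraries summed) for the 151 hairpins with both arms tested, in order of the ratio, with miR-22 as a diamond. miR-22 stands 15th, at 199, and the dotted line marks equal arms.

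The nearest other row on the chromosome is miR-3971, which starts 87708 bases after miR-22-3p. It had 0 counts in every library, where by counting error alone a count of 0 allows up to 3 counts, or 0.393 to 0.655 CPM before scaling. The other rows within 500000 bases belong to miR-212 and miR-132, a pair of hairpins of 1 cluster known for a role in neurons and in heart growth, and lie before it at 75173403 to 75173744 (mm10). Of their 4 tested rows, 2 were called higher in damaged (4.1% of all tested rows were) and 0 lower (5.41%), and the median log2 fold change was 1.09. miR-212-3p had 388 and 807 counts in WT and 1304 and 1866 in damaged. Its mean rose by 1.19 ± 0.22 (SE) on the log2 scale, from 95.9 ± 14.2 CPM in WT to 219 ± 41.0 CPM in damaged (SD, n = 2), with an edgeR adjusted p of 0.0335. miR-132-5p had 434 and 966 counts in WT and 1510 and 1681 in damaged, and its mean rose by 0.99 ± 0.20 (SE), from 111 ± 21.7 CPM to 222 ± 2.33 CPM (SD, n = 2), with an edgeR adjusted p of 0.0385. In both rows the damaged libraries lay above the WT libraries in CPM, as in 29.1% of all tested rows.

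The other arms of these hairpins did not pass with edgeR's main settings. miR-132-3p, the best known guide of the cluster, had 0.87 ± 0.25 (SE) on the log2 scale and an edgeR adjusted p of 0.0800, and it was called in 1 of 13 other settings on 4 libraries. miR-212-5p, with 20 and 16 counts in WT and 87 and 107 in damaged, had 2.07 ± 0.52 (SE) and an edgeR adjusted p of 0.0627, and it was called in 6 of these 13. The calls of miR-212-3p and miR-132-5p were lost when any 1 of the 4 libraries was left out, with adjusted p from 0.0951 to 0.222 for the former and 0.106 to 0.222 for the latter. The log2 fold change was then 0.97 to 1.38 for miR-212-3p and 0.73 to 1.23 for miR-132-5p, in fits that set 2 libraries against 1.

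Likeness of pattern was measured as the root mean square distance, over the 4 libraries, between log2 CPM centred on each row's own mean. The 5 rows nearest to miR-22-3p were miR-467d-5p (0.14), miR-880-3p (0.14), miR-491-5p (0.14), miR-133b-3p (0.15) and miR-741-5p (0.15). They were chosen for likeness, so their direction is given by the choice. miR-133b-3p, a muscle microRNA, was the most abundant of them, with 615 and 664 CPM in WT and 1580 and 1403 CPM in damaged. The other 4 had means of 3.24 to 18.3 CPM, and miR-880-3p and miR-741-5p belong to an X-linked group known from testis. The nearest rows to miR-22-5p were miR-465a-3p (0.06), miR-29a-5p (0.08) and miR-30d-5p (0.08), of which miR-30d-5p was the most abundant, with 1446 and 1652 CPM in WT and 2507 and 2155 CPM in damaged. The 2 arms of miR-22 lay 0.23 apart, against a median distance of 0.70 from miR-22-3p to the tested rows, and miR-22-5p was the 20th nearest of 535. With 4 libraries in 2 groups, any row of similar fold change comes out near.

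**Figure D5:**
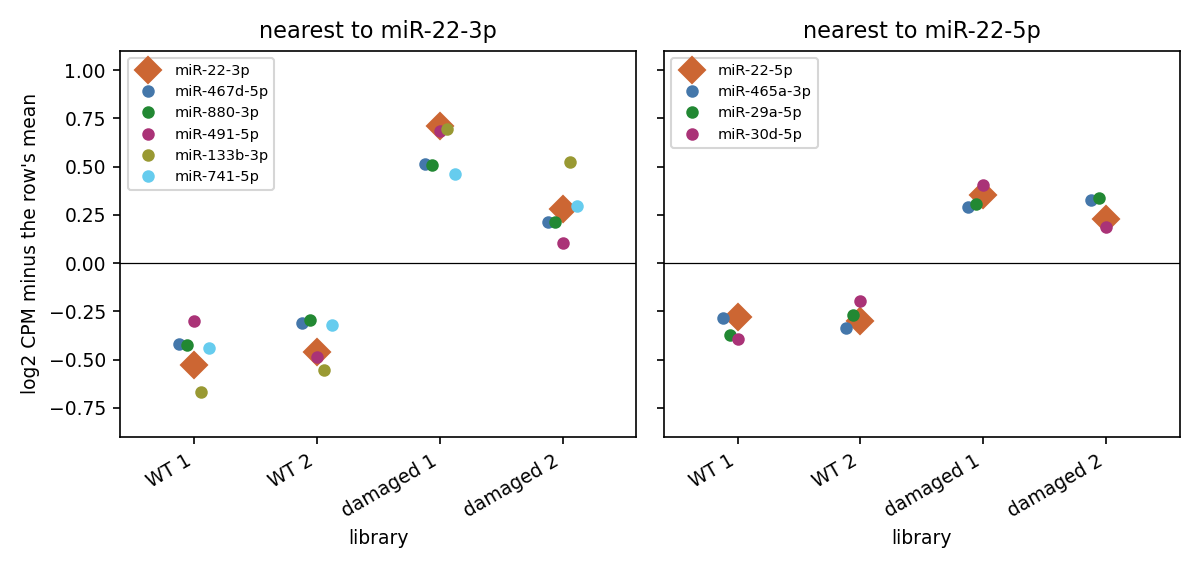
Log2 CPM minus the row's mean (vertical axis) in each library for miR-22-3p and its 5 nearest rows (left) and miR-22-5p and its 3 nearest rows (right), with the miR-22 arms as diamonds. miR-22-3p and its 5 nearest rows stand higher in damaged replicate 1 than in damaged replicate 2, and the points of the 5p panel lie closer together.

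Other microRNAs are also known to repress Hdac4, a histone deacetylase that holds back muscle genes and a target of miR-22. Of 10 tested rows of such microRNAs, none was called in either direction by edgeR, where 9.51% of all tested rows were called. At an unadjusted p under 0.05, 1 was lower, and DESeq2 and limma-voom each called 1 lower. Over all 536 tested rows these counts, in either direction, were 165, 106 and 79. The median log2 fold change was 0.16, beside 0.02 over all tested rows. miR-206-3p had 0.18 ± 0.11 (SE, adjusted p = 0.334) and miR-1a-3p 0.28 ± 0.15 (SE, adjusted p = 0.262).

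microRNAs of striated muscle growth and hypertrophy, a role also known for miR-22, went both ways. Of 20 tested rows, 4 were called higher, 2 lower, and 14 did not pass, with a median of 0.13, where 9.51% of all tested rows were called. DESeq2 called 7 higher and 6 lower, limma-voom 7 and 3, and 8 and 6 had an unadjusted p under 0.05. Over all 536 tested rows, in either direction, DESeq2 called 106, limma-voom 79, and 165 had an unadjusted p under 0.05. The higher rows were both copies of miR-133a-3p (1.14 and 1.12, adjusted p = 0.00914 each by edgeR), miR-133b-3p (1.22, adjusted p = 0.0107) and miR-212-3p. The miR-133 rows are near-identical, so their reads may be split between them. The lower rows were both copies of miR-199a-3p (−0.87 and −0.86, adjusted p = 0.0305 each). Among 22 tested rows of senescence-linked microRNAs, 3 were called higher, 1 lower, and 18 did not pass, with a median of 0.27, beside the same 9.51%. DESeq2 called 6 higher and 3 lower, limma-voom 4 and 3, and 7 and 5 had an unadjusted p under 0.05, beside the same 106, 79 and 165 of all 536 tested rows. miR-34b-3p, a p53 target, rose by 3.05 on the log2 scale (adjusted p = 0.00351), and miR-146a-5p, a brake on inflammatory signalling, by 1.28 (adjusted p = 0.0161). A copy of miR-128-3p was called at 0.85 (adjusted p = 0.0460), and this call was lost in 3 of 13 other settings on 4 libraries (highest adjusted p = 0.0673). Its other copy was not called, at 0.64 ± 0.20 (SE, edgeR adjusted p = 0.0948). miR-34a-5p, of the same family as miR-34b-3p, fell by 0.69 (adjusted p = 0.0275). The lists overlap in part. miR-21a-5p is in both the growth and the senescence list, and miR-206-3p and miR-1a-3p are in both the Hdac4 and the growth list. The called rows miR-212-3p and the copy of miR-128-3p recur among the neural markers below, and miR-212-3p is also a chromosome neighbour. These are the same calls, not further ones.

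Entries that may be pieces of other RNAs held a larger share of both damaged libraries than of both WT libraries. They held 0.177% and 0.275% of counts in WT and 0.634% and 0.684% in damaged, and of 11 tested rows 3 were called higher and 1 lower, beside 9.51% of all tested rows called. The higher ones were miR-6240 (1.64, adjusted p = 0.0356 by edgeR), miR-2137 (1.83, adjusted p = 0.00914) and miR-5121 (2.22, adjusted p = 0.0356), and the lower one was miR-5099-3p (−0.83, adjusted p = 0.0356). The call of miR-6240 was lost in 1 of 12 other settings on 4 libraries (adjusted p = 0.0507). miR-6236 had means of 261 ± 94.9 (WT) and 637 ± 119 CPM (damaged, SD, n = 2). It missed the threshold (1.29, edgeR adjusted p = 0.0531) and was called in 11 of these 12. With these entries left out of the table, the log2 fold change of miR-22-3p was 1.00 and that of miR-22-5p 0.58. Neural markers held 0.0732% and 0.0858% in WT and 0.120% and 0.159% in damaged. Of 20 neural rows 11 had 0 counts in every library, all copies of miR-9 and miR-219a-5p among them. A 0 need not mean absence here, since 1 of 2 copies of miR-1a-3p had 0 counts and the other 17122 to 32470. Of 7 tested neural rows, miR-212-3p and a copy of miR-128-3p were called higher (4.1% of all tested rows were) and 0 lower (5.41%). Their part in the miR-22 difference was not tested.

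Blood cell and liver markers held 0.168% to 0.189% of counts in WT and 0.170% to 0.177% in damaged. Of 6 tested rows edgeR called none, beside 9.51% of all tested rows. DESeq2 and limma-voom called 0, beside 106 and 79 of all 536 tested rows. At an unadjusted p under 0.05, 3 were higher, beside 165 of 536 in either direction. The median log2 fold change of these rows was 0.45, beside 0.02 over all tested rows. miR-451a of red cells, the most abundant of them, stood at 1587 ± 137 (WT) and 1443 ± 81.3 CPM (damaged, SD, n = 2). miR-192-5p, the next in abundance, stood at 165 ± 4.98 (WT) and 218 ± 3.22 CPM (damaged, SD, n = 2). miR-122-5p, miR-126a-3p and miR-142a-3p had 0 counts. As with the neural rows, a 0 need not mean absence. Epithelial markers held 0.000743% and 0.000628% of counts in WT and 0.00174% and 0.00121% in damaged. Both damaged libraries lay above both WT libraries. Of 2 tested rows edgeR, DESeq2 and limma-voom called 0, with 0 at an unadjusted p under 0.05. The totals over all tested rows are the same as for the blood and liver rows. The median log2 fold change was 1.01, with miR-375-3p at 0.55 ± 0.61 (SE) and miR-200c-3p at 1.47 ± 1.43 (SE). miR-375-3p had 24 to 67 counts and miR-200c-3p 0 to 39. The medium held bovine serum, and since miR-22-3p is conserved among mammals, serum and mouse reads of it cannot be told apart in these counts.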

How the data were processed

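The deposited values are whole read counts, 1 row per mature microRNA and 1 column per library. The genome was mm10 and BWA the aligner, with FastQC and featureCounts also listed, per the submitters' processing notes. featureCounts was version 2.0.1, per the file headers, and ran over features of type miRNA by ID, with no option for strand, multi-mapping reads or reads over several features. The sources used here do not give the BWA version, trimming or annotation release. Rows were named by position: 1734 from RefSeq (GRCm38.p6), 6 through another copy of the ID and 358 by GENCODE vM21 hairpin and arm, with 12 unnamed.

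The main fit was edgeR 4.0.16 (R 4.3.3), quasi-likelihood, TMM, filterByExpr (minimum count 10), with no covariate beside the group, Benjamini-Hochberg adjustment at 0.05. It tested 536 rows holding 99.98% of counts in each library. SE is the log2 fold change divided by the root of F. Log2 CPM used a prior count of 2. The fit was also run on simulated counts, drawn with the spread estimated from these same libraries, and the outcome is not given here. Such a run cannot show how separate cultures would vary.

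The alternatives were other scalings and filters, DESeq2 1.42.0, limma-voom (limma 3.58.1), a replicate block, a GC correction (loess span 0.75), copies summed and each library left out. Rows named were the miR-22 arms, the abundant rows, neighbours within 500000 bases, the nearest in pattern or arm ratio, cell type markers and, per list, the 2 most abundant and the called rows. Further rows of 0 counts were named after their values were seen. Members, lists and rules were chosen with earlier results of these data known. Names not matched to rows were 8 fragment entries and miR-486a-5p and miR-486b-5p. The result of 1 further list is not reported here.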

Additional observations from a re-analysis of the deposited data

How the results depend on the processing

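In the settings on 4 libraries the log2 fold change of miR-22-3p stayed between 0.94 and 1.04, within the replicate spread. Leaving out 1 library gave 0.75 to 1.20. miR-22-5p was 0.52 with upper quartile scaling, 0.72 with the GC correction, 0.72 with the GC correction and replicate block, and 0.50 to 0.63 with 1 library left out. The arm ratio difference was 0.25 to 0.56 with 1 library left out, and the median ratio to the abundant rows 0.92 to 1.16. Neither arm changed direction.

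The number of called rows, 51, was 42 with the GC correction, 49 with identical rows summed, 55 without the suspected fragments, 56 with library totals only, 63 with RLE scaling and 76 without miR-206-3p in the totals. It moved further in the other settings: 77 with upper quartile scaling, 131 with no filter, 91 with a filter of 10 CPM in 2 libraries, 106 with DESeq2, 79 with limma-voom, 127 with the replicate block and 77 with the GC correction and replicate block. It was 0 to 30 with 1 library left out. Leaving out either WT library or damaged replicate 1 left edgeR with 0 calls, and leaving out damaged replicate 2 left 30. In these fits the lone library of a group is assumed to vary like the other group. Beside the 0 calls, 103 and 124 rows (WT replicates 1 and 2 left out) and 144 had an unadjusted p under 0.05. With 1 library left out the log2 fold change was 2.84 to 3.19 for miR-34b-3p and 1.01 to 1.21 for a row of miR-133a-3p. Same-numbered libraries did not deviate together (correlation 0.0032 over 536 rows), and the labels name no shared batch. The main fit therefore left them unpaired, but 2 libraries per group cannot exclude a pairing. Over 28 other named rows, 468 values gave 59 lost calls, 24 gained calls and 0 reversed calls. Leaving out the suspected fragments was chosen after seeing the data. Depth limits the 5p arm, with 406 to 963 counts.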
